A study of Mus musculus with 12 samples.

Results

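The Polycomb repressive complex genes described here are 10 genes, namely Ezh1, Ezh2, Eed, Suz12, Jarid2, Kdm2b, Cbx2, Cbx7, Rnf2 and Bmi1, out of the 55401 genes counted. They were chosen by name and by their place in the complexes, with earlier results of these data known. Their symbols were matched to the count tables through the gene identifiers without version numbers. Their levels were measured by RNA-seq of polyadenylated RNA from 3 lines of mouse TPS cells and 3 lines of mouse EPS cells, with 2 technical replicates of each line, which gave 12 libraries. TPS cells are totipotent potential stem cells, grown on feeder cells in the medium that the labels call VCED on a 4C base and the study's methods call CPEC. That medium holds CD1530 (an agonist of the retinoic acid receptor RARγ), VPA (which inhibits histone deacetylases), EPZ004777 (which inhibits the methyltransferase DOT1L) and an inhibitor of the kinase GSK3. EPS cells are extended pluripotent stem cells, grown on feeder cells in LCDM medium, and they served as the comparison group. The groups differed by medium as a whole, so no value here belongs to 1 of the compounds. The sources used here do not say whether a given TPS line came from EPS cells or from a 2-cell embryo, nor whether lines of the same number are related, and p-values measure only the spread between these lines.

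Polycomb proteins work in a pair of chromatin complexes that keep developmental genes silent. PRC2 methylates a lysine in the tail of histone H3 through its catalytic subunit EZH1 or EZH2, which needs EED and SUZ12 to be active. PRC1 attaches ubiquitin to histone H2A through RING1 or RNF2, paired with 1 protein of the PCGF family, and its canonical forms bind the methylated histone through a CBX chromodomain protein. In pluripotent stem cells the complexes sit on the CpG islands of silent lineage genes, and CBX7 is known as the main chromodomain subunit there.

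Library totals ranged from 13676051 to 21821707 counts, and summing the technical replicates gave 29877215 to 38466294 counts per line. Counts of the paired technical replicates were farther apart than sampling alone gives (chi-square divided by its degrees of freedom, 2.58 to 22.3), and none was treated as a duplicate of the other. The labels were checked against marker genes. The 6 markers of the 2-cell stage had a summed level of 155 to 203 CPM in TPS lines and 0.0589 to 0.0979 CPM in EPS lines. CPM is a count scaled by library size and by edgeR's TMM factor. With 0 to 3 counts per EPS line, these markers entered the test only through their TPS lines. All 6 were called higher, but these calls therefore add nothing to the levels. The study had also named Gm5662, Zscan4c and Zfp352 from its own bulk RNA-seq of TPS and EPS cells. All 6 pluripotency markers were detected in both groups, with 2510 to 3140 CPM in TPS lines and 4460 to 6080 CPM in EPS lines. Of these, 3 were called lower, where 7.34% of all tested genes were called lower. The 16 fibroblast markers, which the feeder cells could carry, together reached 6040, 3400 and 3490 CPM in TPS lines 1, 2 and 3, whereas EPS lines 1, 2 and 3 had 325, 1280 and 1350 CPM. Of these 16, 11 were called higher in TPS cells, where 14.4% of all tested genes were called higher, and none was at 0 in any line. With 1 line left out, the 11 calls held in 1 to 6 of the 6 fits, depending on the gene. The part of feeder RNA in the levels below was not tested.

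To compare the groups, each gene was tested by edgeR's quasi-likelihood test across all 17468 genes that passed the filter on low counts, and a gene was called at an adjusted p under 0.05. All 10 Polycomb genes passed the filter. The catalytic subunits Ezh1 and Ezh2, the core subunit Eed and the chromodomain gene Cbx7 were downregulated in TPS cells, by 1.42-fold to 1.63-fold. No gene of the 10 was called higher. However, with library size alone as the scaling 0 were called lower and 2 higher. Each of the 4 calls was also lost in most of the fits that left out 1 line. The 4 called lower stand against a background of 7.34% of all tested genes called lower, the 0 called higher against 14.4% called higher, and the 4 called in all against 21.7% called in either direction. The core subunit Suz12, the accessory subunits Jarid2 and Kdm2b, and the PRC1 genes Rnf2, Cbx2 and Bmi1 did not pass. At an unadjusted p under 0.05, 2653 of the 17468 tested genes were lower and 3803 higher. Of the 10 Polycomb genes, 5 were lower at that threshold, adding Rnf2, and 2 were higher, Cbx2 and Bmi1. DESeq2 called these 5 lower and 2 higher, and limma-voom called the same number as edgeR, 4 lower and 0 higher. Over all tested genes DESeq2 called 1914 lower and 3118 higher, and limma-voom 1245 lower and 2429 higher. The median log2 fold change was -0.27 over the 10 genes and -0.004 over all genes tested. Every TPS line lay below every EPS line for 5 genes and above every EPS line for 2, where 19.1% and 23.6% of all tested genes did so and 42.7% did either. In bulk RNA, fewer cells that express a gene and less of its RNA per cell cannot be told apart.

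**Figure D1:**
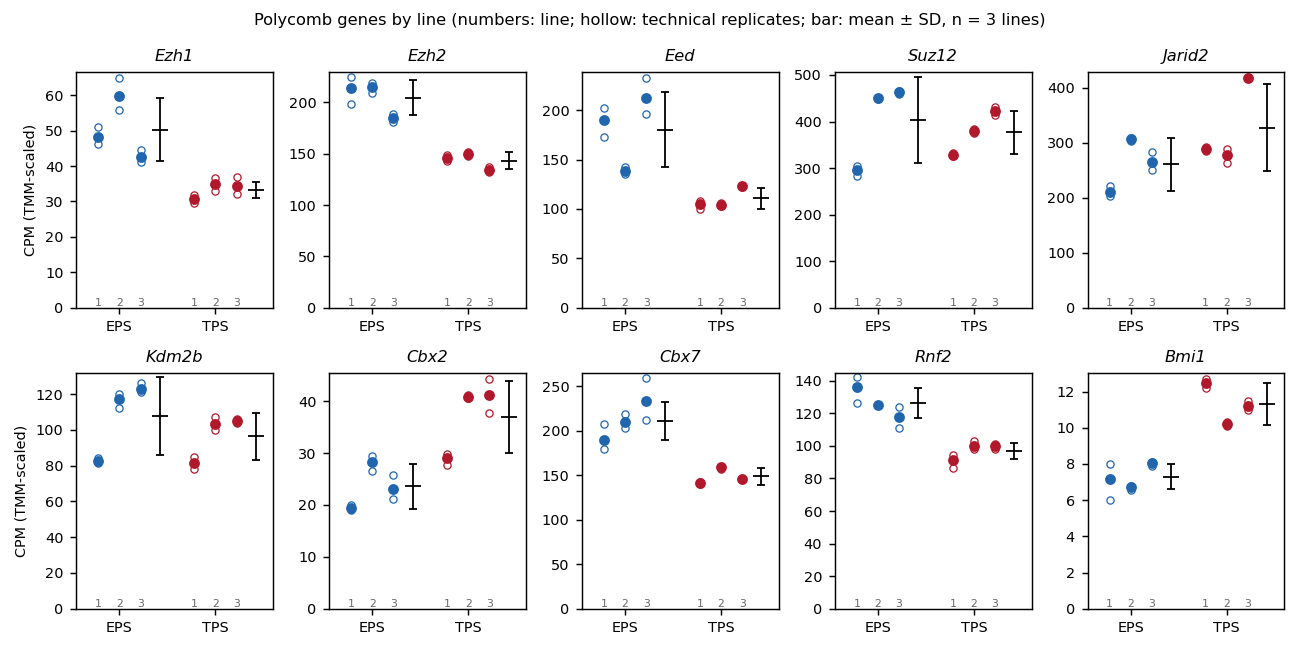
Level of each of the 10 Polycomb genes in CPM (TMM-scaled, linear axis from 0) in 3 EPS lines and 3 TPS lines. Filled points are lines, numbered along the base, hollow points are the technical replicates, and bars give the mean ± SD over lines; the 3 TPS lines lie below the 3 EPS lines for Ezh1, Ezh2, Eed, Cbx7 and Rnf2, above them for Cbx2 and Bmi1, and overlap them for Suz12, Jarid2 and Kdm2b.

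The promoters of the 4 downregulated genes are printed to show what they share in sequence and what they do not. They come from RefSeq (GRCm38.p6), run from 250 bases before to 50 bases after the start of a transcript, are written 5′ to 3′ on the strand of the gene, and lie at chr11:101226414-101226713 (Ezh1), chr6:47594981-47595280 (Ezh2), chr7:89980927-89981226 (Eed) and chr15:79932597-79932896 (Cbx7), all on the minus strand. Capitals mark a CCAAT box (CCAAT, or ATTGG on the other strand) and an E2F site (TTTCCCGC or TTTGGCGC on either strand).
Ezh1: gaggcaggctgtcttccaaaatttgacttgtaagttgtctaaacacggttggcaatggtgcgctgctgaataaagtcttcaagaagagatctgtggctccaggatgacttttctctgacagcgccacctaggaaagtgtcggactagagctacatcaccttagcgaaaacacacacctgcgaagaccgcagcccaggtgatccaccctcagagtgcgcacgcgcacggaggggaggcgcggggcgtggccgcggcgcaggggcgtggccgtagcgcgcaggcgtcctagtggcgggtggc
Ezh2: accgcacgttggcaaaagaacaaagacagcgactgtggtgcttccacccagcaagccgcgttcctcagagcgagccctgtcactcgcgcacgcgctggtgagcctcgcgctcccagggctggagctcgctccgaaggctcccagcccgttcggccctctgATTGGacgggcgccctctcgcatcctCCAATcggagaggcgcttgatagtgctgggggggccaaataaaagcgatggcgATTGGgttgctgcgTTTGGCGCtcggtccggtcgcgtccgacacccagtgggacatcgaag
Eed: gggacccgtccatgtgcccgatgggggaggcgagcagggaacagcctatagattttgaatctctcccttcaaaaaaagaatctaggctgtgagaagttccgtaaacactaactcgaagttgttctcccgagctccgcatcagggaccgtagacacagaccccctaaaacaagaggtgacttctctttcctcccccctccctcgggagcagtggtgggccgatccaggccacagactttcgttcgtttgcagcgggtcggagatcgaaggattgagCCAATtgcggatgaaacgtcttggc
Cbx7: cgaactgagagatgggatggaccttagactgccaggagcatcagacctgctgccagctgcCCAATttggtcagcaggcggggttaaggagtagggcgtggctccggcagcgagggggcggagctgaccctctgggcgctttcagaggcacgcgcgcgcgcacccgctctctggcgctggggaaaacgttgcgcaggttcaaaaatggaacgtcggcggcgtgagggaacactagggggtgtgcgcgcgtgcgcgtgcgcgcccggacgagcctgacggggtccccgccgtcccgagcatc
The RefSeq starts of Ezh2 and Cbx7 lie inside the GENCODE spans of these genes rather than at their outer ends. The Ezh2 promoter held 3 CCAAT boxes and 1 E2F site, those of Eed and Cbx7 held 1 CCAAT box each, and that of Ezh1 held neither motif. A RefSeq promoter was found for 9 of the 10 genes, with 13 start sites in all, and Cbx2 had no entry. Among those 9 genes, 6 had a CCAAT box at a start site, against 37.4% of all 32851 promoters of this length, and 2 had an E2F site, Ezh2 and Suz12, against 1.56%. The GC box GGGCGG, on either strand, was present at 6 of the 9 genes against 35.7% of promoters, and it holds a CpG itself, as the E2F sites do. The letters AGGTCA, the half-site of retinoid receptors, occurred at 0 of the 9 against 16.3% of promoters, and TATAAA at 1 against 13.6%, both strands searched. The 13 promoters held between 17 and 49 CpG dinucleotides, where the median over all promoters was 7 and the quartiles were 3 and 20. Genes with several start sites had more chances to hold a motif than the single promoters of the background. These matches are a description of the letters, and the binding of any factor was not measured.

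Ezh1 (chr11:101191115-101226463, minus strand) and Ezh2 (chr6:47530139-47595341, minus strand) encode the alternative methyltransferases of PRC2. Ezh1 was at 30.7, 34.8 and 34.5 CPM in TPS lines 1, 2 and 3 and at 48.2, 59.9 and 42.6 CPM in EPS lines 1, 2 and 3. All TPS lines were low and all EPS lines high, with EPS line 2 highest. The mean was 33.3 ± 2.29 CPM (SD, n = 3) in TPS cells and 50.3 ± 8.79 CPM (SD, n = 3) in EPS cells. Ezh1 was thus 1.51-fold lower in TPS cells, with a log2 fold change of -0.59 ± 0.17 (SE) and an edgeR adjusted p of 0.0409. Ezh2 is the form associated with dividing cells and held 80.0 to 84.2% of the pair's CPM per kilobase of exon in the 6 lines. It was at 146, 150 and 134 CPM in the TPS lines and at 214, 215 and 185 CPM in the EPS lines. The groups did not overlap, and the lowest EPS line, line 3, stood above the highest TPS line, line 2. The means were 144 ± 8.17 and 205 ± 16.9 CPM (SD, n = 3 each), a 1.43-fold difference with a log2 fold change of -0.51 ± 0.12 (SE) and an edgeR adjusted p of 0.0253. The single libraries were apart as well for both genes, with Ezh2 at 132 to 152 CPM in the TPS libraries and 181 to 225 CPM in the EPS libraries.

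Eed (chr7:89954654-89980983, minus strand) encodes the subunit that binds the methylated histone and stimulates the enzyme. It was at 105, 104 and 123 CPM in TPS lines 1, 2 and 3 and at 190, 138 and 212 CPM in EPS lines 1, 2 and 3. All TPS lines were below all EPS lines, and EPS line 2 came closest to them. Its log2 fold change of -0.71 ± 0.18 (SE) was the lowest of the 10 genes, a 1.63-fold difference with an edgeR adjusted p of 0.0301. Eed shares 261 bases of exon, 6.8% of its own, with the opposite-strand transcript E230029C05Rik, which had 4 to 15 counts per line.

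Suz12 (chr11:79993106-80034123, plus strand), the other core subunit of PRC2, did not follow Ezh1, Ezh2 and Eed in its line values. It was at 329, 380 and 422 CPM in TPS lines 1, 2 and 3 and at 296, 450 and 463 CPM in EPS lines 1, 2 and 3. The groups overlapped, since EPS line 1 was the lowest of all 6 lines and the other two EPS lines the highest. The log2 fold change was -0.09 with a 95% interval from -0.55 to 0.36 and an edgeR adjusted p of 0.764. Its sign was not fixed, because the estimate was 0.003 without EPS line 3. Jarid2 (chr13:44729474-44921643, plus strand) encodes a DNA-binding accessory subunit that helps to place PRC2 on chromatin. It was at 288, 277 and 418 CPM in the TPS lines and at 211, 307 and 265 CPM in the EPS lines. TPS line 3 was high, and TPS lines 1 and 2 lay within the EPS range. Its log2 fold change was 0.33 with a 95% interval from -0.16 to 0.81 and an edgeR adjusted p of 0.292.

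Among the PRC1 genes, Cbx7 (chr15:79915807-79971119, minus strand) was downregulated. It was at 141, 159 and 146 CPM in TPS lines 1, 2 and 3 and at 190, 210 and 233 CPM in EPS lines 1, 2 and 3. Every EPS line was above every TPS line, and the TPS lines lay close together, at 149 ± 8.94 CPM against 211 ± 21.4 CPM (SD, n = 3 each). Cbx7 was 1.42-fold lower in TPS cells, with a log2 fold change of -0.51 ± 0.13 (SE) and an edgeR adjusted p of 0.03. Cbx7 shares 100 bases of exon, 1.5% of its own, with Apobec3 on the opposite strand. The strand setting of the counting is not given in the sources used here, so reads in that stretch cannot be assigned with certainty, and Apobec3 itself had 4014 to 5404 counts per EPS line and 1370 to 3107 per TPS line.

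Cbx2 (chr11:119022962-119031270, plus strand), a CBX gene known for roles in body patterning and sex determination, had the opposite direction. It was at 29.0, 40.9 and 41.1 CPM in TPS lines 1, 2 and 3 and at 19.4, 28.2 and 23.1 CPM in EPS lines 1, 2 and 3. The lines did not overlap, but TPS line 1 and EPS line 2 were nearly level and their single libraries overlapped. The log2 fold change was 0.65 with a 95% interval from 0.16 to 1.14, and the edgeR adjusted p of 0.0632 did not pass. Leaving out TPS line 1 brought it past the threshold, with an adjusted p of 0.0482, and over the 6 fits that each left out 1 line the adjusted p ran from 0.0482 to 0.181.

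Rnf2 (chr1:151458004-151500955, minus strand) encodes the main ubiquitin ligase of PRC1 in embryonic cells. It was at 91.3, 100 and 99.6 CPM in TPS lines 1, 2 and 3 and at 136, 125 and 118 CPM in EPS lines 1, 2 and 3. All TPS lines were below all EPS lines, and so were the single libraries, at 86.6 to 103 CPM against 111 to 142 CPM. The log2 fold change was -0.38 with a 95% interval from -0.66 to -0.10, and the edgeR adjusted p of 0.0572 did not pass. Rnf2 shares 158 bases of exon, 3.8% of its own, with Trmt1l on the opposite strand.

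Bmi1 (chr2:18677018-18686629, plus strand), also known as Pcgf4, encodes a PCGF partner of the ligase and represses the Cdkn2a locus in many cell types. It was at 12.5, 10.2 and 11.2 CPM in TPS lines 1, 2 and 3 and at 7.18, 6.71 and 8.03 CPM in EPS lines 1, 2 and 3. All TPS lines were above all EPS lines. The estimated log2 fold change was 0.63 with a 95% interval from 0.13 to 1.13, and the edgeR adjusted p of 0.0737 did not pass. Its libraries held 75 to 289 counts, the fewest of the 10 genes, and its technical replicates differed the most, by up to 1.33-fold in EPS line 1. A near-identical copy, Gm5946, matched 97.0% over 73.9% of the transcript and had at most 2 counts per line.

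Kdm2b (chr5:122870665-122989823, minus strand) encodes a demethylase whose zinc finger binds unmethylated CpG and brings a variant PRC1 to CpG islands. It was at 81.2, 103 and 105 CPM in TPS lines 1, 2 and 3 and at 82.8, 117 and 123 CPM in EPS lines 1, 2 and 3. The groups overlapped, and line 1 was the lowest line in both. The log2 fold change was -0.15 with a 95% interval from -0.59 to 0.28 and an edgeR adjusted p of 0.589. Kdm2b shares 627 bases of exon, 5.8% of its own, with Rnf34 on the opposite strand.

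The lines of a group were not alike in how they ranked. EPS line 1 was the lowest EPS line for Suz12, Jarid2, Kdm2b, Cbx2 and Cbx7 but not for Ezh1, Ezh2, Eed, Rnf2 or Bmi1. It was also the EPS line with the least fibroblast marker RNA, at 325 CPM. TPS line 1, with the most at 6040 CPM, was the lowest TPS line for Ezh1, Suz12, Kdm2b, Cbx2, Cbx7 and Rnf2 and the highest for Bmi1. The part of the feeder signal in these ranks was not tested.

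To see how each family was made up, the share of each gene in its family was computed from CPM per kilobase of exon within each line, a measure that scaling between lines does not change. No test was run on these shares. In the CBX family, Cbx7 held 58.2 ± 0.918% in TPS lines and 70.7 ± 1.95% in EPS lines (SD, n = 3 each). Cbx2 held 22 ± 3.15% and 12.0 ± 1.75%. Neither gene's lines overlapped, so Cbx7 had the largest share in all 6 lines while Cbx2 took more in TPS lines. Cbx8 was at 0.355% in EPS lines and 1.34% in TPS lines, without overlap, whereas Cbx6 overlapped at 16.0% and 15.3%. In the EZH family the balance overlapped, with Ezh1 at 17.3 ± 1.45% in TPS lines and 18.0 ± 1.77% in EPS lines (SD, n = 3 each). Rnf2 held 89.2 ± 3.64% and 88.5 ± 1.5% of the sum with Ring1, also with overlap.

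Bmi1 was a minor member of the PCGF family in both groups. It held 5.34 ± 0.629% in TPS lines and 3.38 ± 0.446% in EPS lines (SD, n = 3 each), without overlap. Pcgf3 was at 13.7% in EPS lines and 22.4% in TPS lines, while Pcgf6 was at 29.3% and 24.6% and Pcgf1 at 11.6% and 8.21%, all 3 without overlap. Pcgf2, with the largest mean share per kilobase of exon, was at 39.1% and 35.2% and Pcgf5 at 2.91% and 4.27%, both with overlap. By counts with no length, Pcgf3 was largest in TPS lines, at 38.8% against 22.8% for Pcgf2. In EPS lines Pcgf6 was then largest, at 30.4% against 28.4% for Pcgf2. Kdm2b held 62.5 ± 1.0% of the sum with Kdm2a in EPS lines and 55.4 ± 4.59% in TPS lines (SD, n = 3 each), without overlap, although its own level did not pass the test. Using the longest transcript as the length, or counts with no length, left the direction of each of these differences as it was, although without length several moved in size by over 1.5 times.

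**Figure D2:**
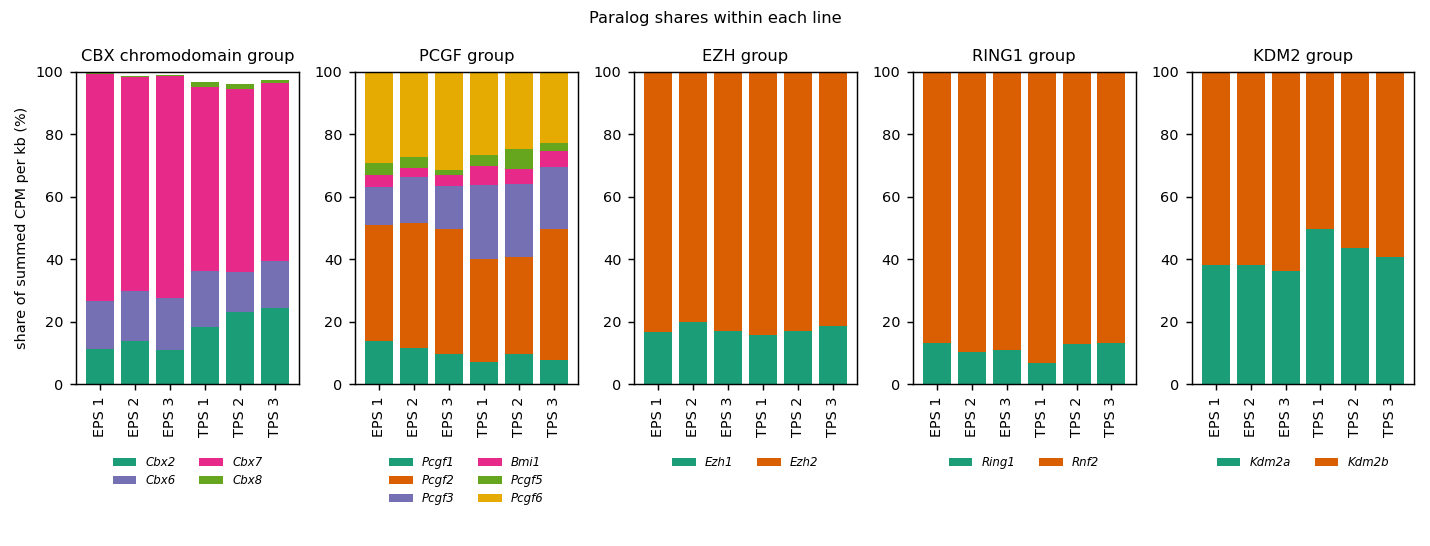
Share of each gene in the summed CPM per kilobase of its family, in percent, in each of the 6 lines, with 1 stacked bar per line and the whole family as the denominator. In the CBX family Cbx7 takes 57.1 to 58.9% in TPS lines and 68.6 to 72.5% in EPS lines, and Cbx2 takes 18.4 to 24.5% and 10.8 to 14.0%, while the EZH and RING1 families overlap between groups.

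Across genes, levels were compared in CPM per kilobase of the union of exons. Suz12 was the most abundant in both groups, at 76.3 ± 9.41 in TPS lines and 81.4 ± 18.8 in EPS lines (SD, n = 3 each), and its lines lay above those of the next gene. In TPS lines Jarid2 followed at 33.8 and Eed at 28.8, which overlapped, then Rnf2 at 23.5, Cbx7 at 22.9 and Ezh2 at 21.5, where each neighbour overlapped the next. Kdm2b at 8.88 and Cbx2 at 8.69 overlapped, and Ezh1 at 4.48 and Bmi1 at 2.85 lay apart below them. In EPS lines Eed came second at 47.0, clear of Cbx7 at 32.6, Ezh2 at 30.7, Rnf2 at 30.6 and Jarid2 at 26.9, where each neighbour overlapped the next. Kdm2b at 9.88, Ezh1 at 6.75 and Cbx2 at 5.54 formed another run of overlapping neighbours, and Bmi1 was last at 1.84. The order of the middle genes depends on the length used, since Ezh2 stood at 51.5 in TPS lines and 73.5 in EPS lines per kilobase of its longest transcript, where Suz12 and Eed overlapped in EPS lines.

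The other subunits of the complexes comprised 37 genes, all tested, of which 10 were called higher, 3 lower and 24 neither, with a median log2 fold change of 0.02. Over all tested genes 14.4% were called higher and 7.34% lower, so the 3 lower genes are near the background share. The largest difference was that of AU022751, the mouse gene of EZHIP, an inhibitor that binds the catalytic centre of PRC2. It was at 13.9, 23.5 and 14.9 CPM in TPS lines 1, 2 and 3 and at 0.229, 0.294 and 0.285 CPM in EPS lines 1, 2 and 3, where it had 7 to 10 counts per line. All TPS lines were far above all EPS lines, with a log2 fold change of 5.99 ± 0.36 (SE) and an edgeR adjusted p of 0.000299. With 7 to 10 counts per EPS line, it passed the filter on low counts only through its TPS lines. Its call and adjusted p therefore support no statement beyond these line values. The size of the difference was not precise at those EPS counts, being 5.13 with technical replicate 1 alone and 7.15 with technical replicate 2 alone. Of the other 2 PRC2 genes called, Aebp2, an accessory subunit found in the same form of PRC2 as Jarid2, was 1.58-fold higher (adjusted p = 0.0122 by edgeR), and Lcorl, whose locus encodes an accessory subunit of the other form, was 1.97-fold lower (adjusted p = 0.0126 by edgeR).

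Of the 27 other PRC1 genes, 8 were called higher and 2 lower, against 14.4% and 7.34% of all tested genes, and the lower count again is near the background. Scml2, a germline-associated PRC1 gene, was at 67.0, 27.0 and 14.8 CPM in TPS lines 1, 2 and 3 and at 2.12, 2.41 and 2.25 CPM in EPS lines 1, 2 and 3. TPS line 1, also the line with the most fibroblast marker RNA, was the highest by far, and all TPS lines were above all EPS lines, with a log2 fold change of 4.00 ± 0.55 (SE) and an edgeR adjusted p of 0.00431. Without TPS line 1 or any other line the estimate lay between 3.21 and 4.37, and the part of the feeder signal in it was not tested. Bcorl1, a scaffold of the variant PRC1 that holds KDM2B, was 3.65-fold higher (adjusted p = 0.00352 by edgeR), although Kdm2b itself did not pass. Cbx8 was 3.16-fold higher (adjusted p = 0.0411 by edgeR) from 0.612 CPM in EPS lines, and it lost its call when any 1 line was left out. Its log2 fold change of 1.66 became 1.14, not called, with technical replicate 1 alone and 2.26 with technical replicate 2 alone. L3mbtl2, a reader in the variant PRC1 with PCGF6, was 1.6-fold lower (adjusted p = 0.00957 by edgeR), and Fbrsl1, a relative of Auts2, was 1.37-fold lower (adjusted p = 0.034 by edgeR). When single lines were dropped Fbrsl1 passed without EPS line 1 alone. It did not pass with library size alone, with upper quartile factors, with no filter on low counts or with technical replicate 2 alone. Nor did Fbrsl1 pass with the line number as a replicate block. Of the called genes named here, Aebp2, Lcorl, Scml2, Bcorl1 and L3mbtl2 stayed called in all 6 fits that each left out 1 line. AU022751 is left out of that list, because its low EPS counts bear on its call in those fits too. Cbx2 and Cbx8 lie close to each other on chromosome 11, between 119022962 and 119040969, and both were higher in every TPS line than in any EPS line. This neighbourhood was picked out after its values were seen.

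**Figure D3:**
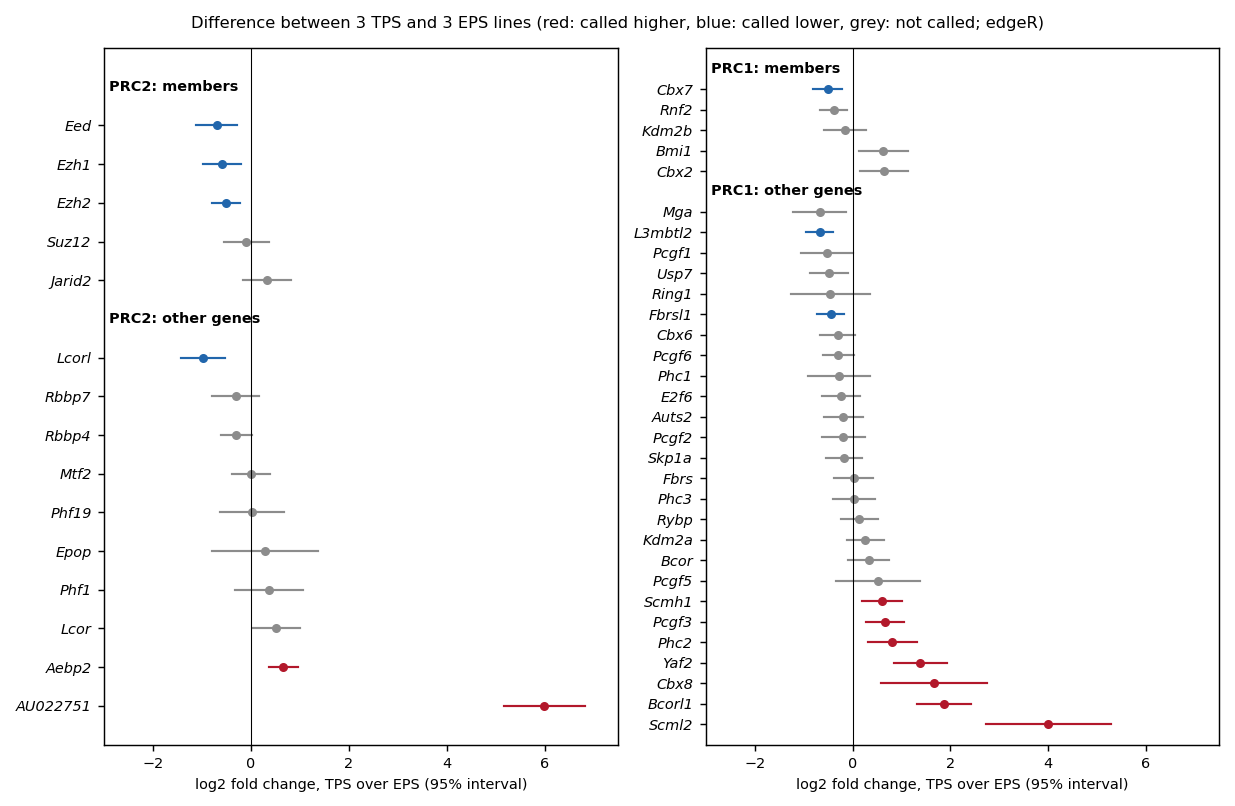
Log2 fold change of TPS over EPS lines with its 95% interval for the 10 Polycomb genes and other subunits, PRC2 on the left and PRC1 on the right. Red marks genes called higher, blue genes called lower and grey genes not called; Eed, Ezh1, Ezh2 and Cbx7 are blue, except that with library size alone as the scaling none of them is called, and AU022751 at 5.99 and Scml2 at 4.00 lie farthest to the right.

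The 4 calls among the 10 genes were close to the threshold, and each was lost in most of the fits that left out 1 line. Of those 6 fits, Ezh2 passed in 2 (without EPS line 1 and without EPS line 3), and Ezh1 (without EPS line 3), Eed (without EPS line 2) and Cbx7 (without EPS line 1) passed in 1 each. The number called lower was 0 without any 1 of the TPS lines, 2 without EPS line 1, 1 without EPS line 2 and 2 without EPS line 3. The estimates kept their sign in these fits, from -0.71 to -0.47 for Ezh1, from -0.59 to -0.47 for Ezh2, from -0.89 to -0.58 for Eed and from -0.60 to -0.44 for Cbx7. Scaling by library size alone moved the median log2 fold change of all genes to 0.14. Under that scaling Ezh1, Ezh2, Eed and Cbx7 had values of -0.44, -0.36, -0.56 and -0.36 and were not called, while Cbx2 at 0.79 and Bmi1 at 0.77 were called higher. Relative to the median of all genes, Ezh1 was at -0.59 with TMM and -0.59 with library size alone, Ezh2 at -0.51 and -0.51, Eed at -0.70 and -0.70, and Cbx7 at -0.50 and -0.51. A change of scaling moves all genes nearly alike, so these values had to match. They do not test whether the calls hold.

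**Figure D4:**
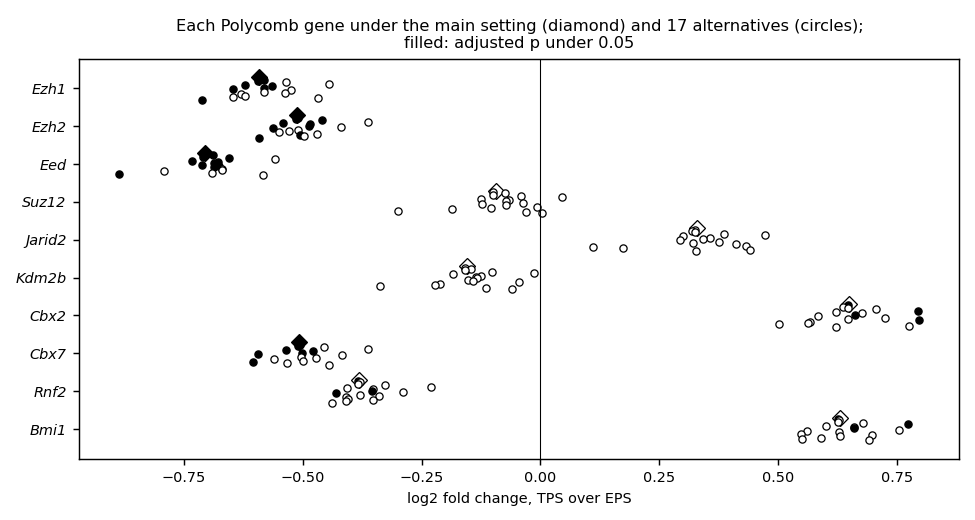
Log2 fold change of TPS over EPS for each Polycomb gene under edgeR with TMM (diamond) and under 17 other settings (circles), filled where the adjusted p was under 0.05. Ezh1, Ezh2, Eed, Cbx7 and Rnf2 lie below 0 and Jarid2, Cbx2 and Bmi1 above 0 under every setting drawn, while Suz12 crosses 0 at 0.046 and 0.003.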

How the data were processed

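Processed counts were taken from 12 libraries. According to the study's methods and the submitters' processing notes, the authors trimmed reads with fastp 0.19.7, mapped them to mouse mm10 (GRCm38) with STAR 2.7.3a and deposited raw counts of reads per gene, without normalization. The counting tool, annotation release and strand setting are not given in the sources used here. Sample groups and line numbers came from the labels. Technical replicates were summed, giving 3 lines per group. Symbols came from GENCODE M21, which matched 55141 of 55401 identifiers without version (54349 with it).

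Lines were compared in R 4.3.3 with edgeR 4.0.16 (TMM, filterByExpr with a minimum count of 10 and a total of 15, quasi-likelihood test, Benjamini-Hochberg adjustment over 17468 genes, threshold 0.05). The SE is the log2 fold change divided by the square root of F. Alternatives were DESeq2 1.42.0, limma-voom (limma 3.58.1), other scalings and filters, single technical replicates, 12 separate libraries, a replicate block, a threshold of 0.01 and leaving out each line. Near-identical copies were sought with blastn 2.17.0 (at least 95% identity over at least 50% of a transcript). The test was tested on simulated data. Genes named were the 10 chosen and, of each other list, those called, or the 3 with the largest change per direction where over 6 were called; paralogs of the 10 were given by share. The members and lists were chosen with earlier results of these data known. PCR reads are not independent molecules, so counts carry more than counting error. The values of 1 gene are not reported here, although counts and family sums include it. Single-cell data were not analysed here.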

Additional observations from a re-analysis of the deposited data

How the results depend on the processing

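The 10 Polycomb genes gave 170 gene and setting pairs besides edgeR with TMM. In 127 the direction and the side of the threshold were kept, in 31 a call was lost, in 10 a call was gained and in 2 the sign of Suz12 turned, to 0.046 with library size alone and to 0.003 without EPS line 3 (range with 1 line left out, -0.30 to 0.003). Against 0 higher and 4 lower, the 10 genes gave 2 higher with DESeq2, with library size alone and with 12 separate libraries. They gave 2 lower with upper quartile factors, 0 lower with library size alone and 0 lower at a threshold of 0.01. Leaving out 1 line gave 0 to 1 higher and 0 to 2 lower.

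Against 10 higher and 3 lower, the 37 other Polycomb genes gave 4 higher and 1 lower at a threshold of 0.01, 9 lower with 12 separate libraries, and 5 to 6 higher and 2 to 5 lower with 1 line left out. Against 2509 higher and 1282 lower, all genes gave 4067 and 3610 with 12 separate libraries, 873 and 258 at a threshold of 0.01, 745 lower with library size alone, and 1617 to 2234 higher and 493 to 1047 lower with 1 line left out. Of all calls, 66.2% were higher, against 80% with library size alone and 53% with 12 separate libraries.

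The line number as a replicate block gave 1 Polycomb gene lower (Eed), 6 other Polycomb genes higher and 721 of all genes lower. Same-numbered lines did not deviate together (r = 0.024, -0.116 and 0.042 for numbers 1, 2 and 3), so the numbers were not taken to pair the lines. Without division by length the difference in share was -9.25 percentage points for Cbx7, against -12.5, and 1.09 for Bmi1, against 1.96. It was -1.5 for Pcgf1, against -3.42, -7.9 for Pcgf6, against -4.7, 11.9 for Pcgf3, against 8.68, and 0.562 for Cbx8, against 0.986. Of the overlapping shares, Cbx6 was at -0.0371, against -0.708, and Pcgf5 at 2.11, against 1.36. These shares use the same counts and differ only in the division by length. The 12 separate libraries treat technical replicates of a line as independent samples, which they are not. The numbers called in that setting are therefore no measure of the spread between lines. For the other settings, apart from fewer samples or a stricter threshold, the cause of the shifts was not tested. Depth limits Bmi1 the most, with 75 to 289 counts per library.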

Other observations

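Enzymes that act against Polycomb marks were counted as a further list. These were 11 genes for demethylation of the histone H3 lysine (Kdm6a, Kdm6b) and for removal of ubiquitin from histone H2A (Bap1 with its partners, Usp16, Mysm1), and 0 of 11 passed by edgeR, by DESeq2 or by limma-voom, with 0 at an unadjusted p under 0.05. With 21.7% of all tested genes called in either direction, few calls in a list of this size are no result about the list. At the unadjusted threshold, 2653 of the 17468 tested genes were lower and 3803 higher. No test was run on the list. Of the demethylase genes, named for their function, Kdm6a had a log2 fold change of -0.36 ± 0.25 (SE) and Kdm6b of 0.05 ± 0.22 (SE).

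Of 20 developmental genes known from textbooks as Polycomb targets in embryonic stem cells, 16 were tested, and 7 were called higher and 1 lower in TPS cells, against 14.4% and 7.34% of all tested genes. DESeq2 called 9 higher and 1 lower and limma-voom 5 higher and 1 lower. Lhx5, Neurog2, Nkx2-2 and Pax7 were too low to be tested, and a gene near 0 in EPS cells enters the test only through its level in TPS cells, so these counts of calls support no statement about the list. Several of the tested genes were near 0 in EPS cells, and since their fitted changes depend on few counts no fold is given for them. The homeobox gene Lbx1 was at 0.824, 1.74 and 0.445 CPM in TPS lines 1, 2 and 3 and at 0.0326, 0 and 0.0854 CPM in EPS lines 1, 2 and 3. Cdx2, a trophectoderm and posterior patterning factor, was at 0.675, 3.65 and 9.37 CPM in TPS lines and at 0, 0.177 and 0.541 CPM in EPS lines. Pax3, a factor of neural tube and muscle precursors, was at 0.375, 1.63 and 1.05 CPM in TPS lines and at 0, 0.147 and 0.0854 CPM in EPS lines. With 1 line left out, Cdx2 was called in 2 of 6 fits and Pax3 in 1 of 6, and Cdx2 was not called by limma-voom. The neural factor Olig2 went the other way, at 0.799, 3.83 and 10 CPM in TPS lines and at 45.8, 77.7 and 40.9 CPM in EPS lines (adjusted p = 0.019 by edgeR), and its call was lost without TPS line 2 and without EPS line 2. Histone marks were not measured in these libraries, and whether these genes carry them here was not tested.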
